A study of Mus musculus with 20 samples.

Results

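The 10 genes described here are P4ha1 and 9 further genes of the cellular response to low oxygen, namely Hif1a, Bnip3, Vegfa, Slc2a1, Pdk1, Egln1, Egln3, Ndrg1 and Ankrd37, out of 24062 genes in the deposited table. They were picked by symbol. P4ha1 heads the set because its genotype differences at both ages were already known from these data, so its values are given as a description without a test. The other 9 are well-known hypoxia genes, also listed with earlier results in view. Every one of the 10 genes had at least 10 normalized counts in all 20 mice and entered the fits at both ages.

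The RNA came from microglia of single male B6D2F1/J mice. The 7-month set held 6 mThy1-α-synuclein mice and 4 wild-type mice, and the 10-month set held 5 of each genotype. The transgenic mice (hemizygous, HEM in the labels) carry human wild-type α-synuclein under the mouse Thy1 promoter, which drives expression mainly in neurons, and the transgene sits on the X chromosome. The controls were wild-type littermates without the transgene (WT), no mouse received a drug, and all were killed with CO2. Cells were taken from the whole brain with magnetic beads against IBA1 by the labels and against CD11b by the methods, mice were not pooled, and the methods give purity only as an estimate from the protocol. Mice of each age were processed together and normalized separately, so a level set across the ages cannot be told apart from a processing difference.

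Cells sense oxygen through prolyl hydroxylases of the EGLN family, which mark the α subunits of hypoxia-inducible factor (HIF) for degradation while oxygen is present. When oxygen falls, HIF-1α (Hif1a) accumulates mostly as protein, pairs with ARNT and binds short DNA elements with the core ACGTG or GCGTG near genes for glucose uptake, glycolysis, mitochondrial turnover and vessel growth. P4ha1 encodes the catalytic α subunit of collagen prolyl 4-hydroxylase, an oxygen-dependent enzyme of the endoplasmic reticulum and a classic HIF target. Microglia are the resident macrophages of the brain, in which HIF-1 is also linked to inflammatory activation and to a shift towards glycolysis.

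To let the core be seen where HIF could bind, the stretches upstream of P4ha1, Slc2a1 and Pdk1, well-measured members whose genotype difference had opposite signs at the ages, are printed from RefSeq (build GRCm38.p6), 5′ to 3′ on the strand of the gene. Capitals mark the core GCGTG, or CACGC where it lies on the opposite strand. Each stretch stops before the first base of any annotated transcript. P4ha1 lies on chr10:59323197-59373304 and its stretch is chr10:59323046-59323196, Slc2a1 lies on chr4:119108745-119137330 with chr4:119108495-119108710, and Pdk1 lies on chr2:71873215-71903858 with chr2:71872974-71873214.
P4ha1: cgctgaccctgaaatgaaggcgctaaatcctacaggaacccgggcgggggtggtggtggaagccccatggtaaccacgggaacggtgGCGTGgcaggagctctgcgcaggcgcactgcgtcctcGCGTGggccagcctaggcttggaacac
Slc2a1: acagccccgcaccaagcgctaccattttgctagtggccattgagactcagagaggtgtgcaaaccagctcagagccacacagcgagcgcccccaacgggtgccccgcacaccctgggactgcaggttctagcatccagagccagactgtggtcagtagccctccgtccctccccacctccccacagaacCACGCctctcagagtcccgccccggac
Pdk1: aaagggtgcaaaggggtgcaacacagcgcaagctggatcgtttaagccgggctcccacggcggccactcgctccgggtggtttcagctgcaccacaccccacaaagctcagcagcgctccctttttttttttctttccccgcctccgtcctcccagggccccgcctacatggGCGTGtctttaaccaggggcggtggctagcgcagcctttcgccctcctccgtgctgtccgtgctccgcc
In these stretches P4ha1 had 2 cores, 163 and 126 bases before the start site of the promoter table, Slc2a1 had 1 core 61 bases before it, and Pdk1 had 1 core 78 bases before it. When 250 bases before each start site were searched on both strands for ACGTG and GCGTG, 38.6% of all 32851 windows held at least 1 core. The 9 members with a window each had at least 1, from 1 core for Pdk1 and Egln3 to 5 for Bnip3, and 2 of their 11 windows (alternative start sites of Pdk1 and Vegfa) had none. ACGTG overlaps the E-box CACGTG that other factors bind, and a match of 5 letters is a description of the sequence, not a binding site. Ndrg1 had no entry.

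Between 33404096 and 77806399 reads per mouse were counted on genes. Microglial markers (10 genes) summed to between 1.73e+06 and 2.27e+06 normalized counts in every mouse. At 10 months 4 of the 10 were higher in mThy1-α-synuclein mice (adjusted p under 0.05, limma), where 3.88% of all genes were. Other cells left RNA in the samples too. Summed neutrophil and monocyte markers (7 of 8 listed genes in the table) ranged from 34950.5 to 264498 and differed strongly between mice of the same group, so they are given beside the genes that moved with them. At 7 months the sums of endothelial, oligodendrocyte, astrocyte and neuron markers were all lower in mThy1-α-synuclein mice without overlap, and at 10 months only that of border macrophages was, among the 10 cell lists. Of 10 astrocyte markers, 4 were called lower and 1 higher at 7 months, where 2.7% and 2.23% of all genes were. In bulk RNA, fewer cells of a type and less RNA per cell cannot be told apart.

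P4ha1 was the most abundant of the 10 genes per length. Its normalized counts per kilobase of exon averaged 4714 in 7-month mThy1-α-synuclein, 3428 in 7-month wild-type, 3699.9 in 10-month mThy1-α-synuclein and 6156 in 10-month wild-type mice. Hif1a came next in all 4 groups (1906 to 2585 per kilobase) without overlapping P4ha1 above it or the gene below it. Pdk1, Egln1, Bnip3 and Slc2a1 followed between 538 and 1401 per kilobase. Within this middle tier Egln1 and Bnip3 overlapped in all groups but the 10-month wild-type mice, where each of the 4 genes overlapped its neighbour in the order. Egln3, Ndrg1, Ankrd37 and Vegfa formed a low tier of 27.1 to 123 per kilobase, far below Slc2a1 and with a changing order among themselves.

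At 7 months P4ha1 stood higher in mThy1-α-synuclein mice, and at 10 months it stood lower. The 6 transgenic mice at 7 months ranged from 17592 to 21752 normalized counts with a median of 19093 (mean 19394 ± 1465, SD), and the 4 wild-type mice had 13514, 13612, 15034 and 14255 (mean 14103 ± 702). At 10 months the transgenic mice had 14561, 19218, 16773, 12872 and 12682 (mean 15221 ± 2774), and the wild-type mice 26302, 25905, 22147, 28287 and 23982 (mean 25325 ± 2343). The genotypes did not overlap at either age, and the order was opposite. The log2 difference, mThy1-α-synuclein minus wild-type, was 0.46 (standard error, SE, 0.072) at 7 months and −0.75 (SE 0.11) at 10 months. Both are a description, since the gene was chosen for these differences.

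Levels of P4ha1 across the ages are a description only, since age and processing cannot be told apart. The wild-type mean was 271 ± 9.64 CPM (reads scaled to the same library total, SD) at 7 months and 532 ± 48.9 at 10 months. The transgenic mean was 373 ± 24.8 CPM at 7 months and 319 ± 56.3 at 10 months, with overlapping spreads. The 10-month minus 7-month difference of the genotype effect was −1.21 on the log2 scale (SE 0.14), which was not tested because the gene was chosen for this pattern. Leaving out any single mouse kept the 7-month difference between 0.42 and 0.49 and the 10-month difference between −0.84 and −0.69. The plot of the 10 genes by mouse shows these values.

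**Figure D1:**
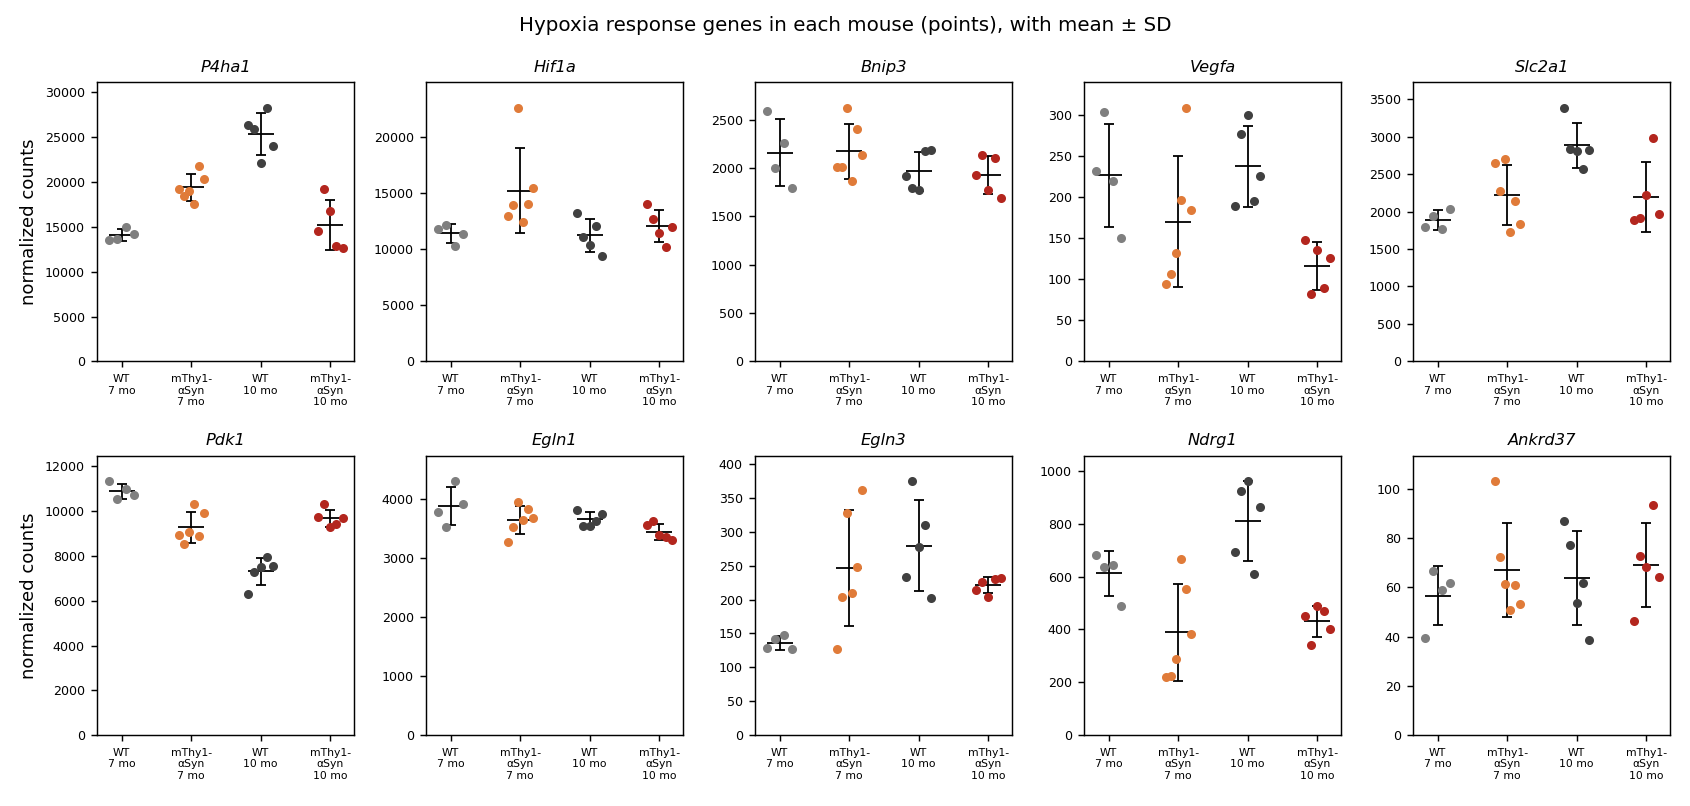
Normalized counts (vertical axes, starting at 0) of the 10 genes in each of the 20 mice (points), with the group mean and SD (bars), for wild-type (WT) and mThy1-α-synuclein (mThy1-αSyn) mice at 7 and 10 months (mo). P4ha1 is higher in the transgenic mice at 7 months (17592 to 21752 against 13514 to 15034) and lower at 10 months (12682 to 19218 against 22147 to 28287). Pdk1 shows the opposite order.

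The partners and relatives of P4ha1 were read for comparison. P4hb, the protein disulfide isomerase that completes the collagen prolyl 4-hydroxylase tetramer, averaged 25604 normalized counts in transgenic against 23657 in wild-type mice at 7 months, and 23953 against 26066 at 10 months. Its log2 differences of 0.11 and −0.13 did not pass the test (limma, adjusted p = 0.446 and 0.397). The alternative catalytic subunits were scarce, with group means of 13.7 to 48.2 for P4ha2 and 0.958 to 6.11 for P4ha3. Of the 14 tested genes within 1 Mb of P4ha1, 2 passed the test at 7 months, where 4.93% of all genes did. These were Sowahc (0.38, adjusted p = 0.0203) and Spock2 (−1.37, adjusted p = 0.00457), which lie on different sides of 0. At 10 months 0 of the 14 passed, where 7.67% of all genes did.

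Among the other 9 genes the calls below come from limma on log2(normalized count + 1) over all tested genes, and they were read with earlier results of these data known. At 7 months 0 of these 9 were called at an adjusted p under 0.05, where 4.93% of all 13887 tested genes were (2.23% higher and 2.7% lower). At that age 4 of the 9 had an unadjusted p under 0.05, as did 2962 of the 13887 genes. edgeR called 0 of the 9 and 695 of all 13887, and DESeq2 called 3 (Hif1a, Pdk1 and Egln3) and 1158 of all 13887. At 10 months 4 of the 9 were called (Vegfa, Slc2a1 and Ndrg1 lower, Pdk1 higher), where 7.67% of 13627 genes were (3.88% higher and 3.79% lower). For the difference between the ages, 3 of the 9 were called (Pdk1 more positive, Slc2a1 and Egln3 more negative at 10 months), where 6.6% of 14030 genes were (3.87% more positive and 2.73% more negative). Groups did not overlap for 2 of the 9 at 7 months (Hif1a and Pdk1), where 7.53% of genes did not, and for 3 at 10 months (Vegfa, Pdk1 and Ndrg1), where 7.27% did not. The median log2 difference of the 9 was 0.012 at 7 months, beside 0.00093 for all genes, and −0.084 at 10 months, beside −0.0026.

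**Figure D2:**
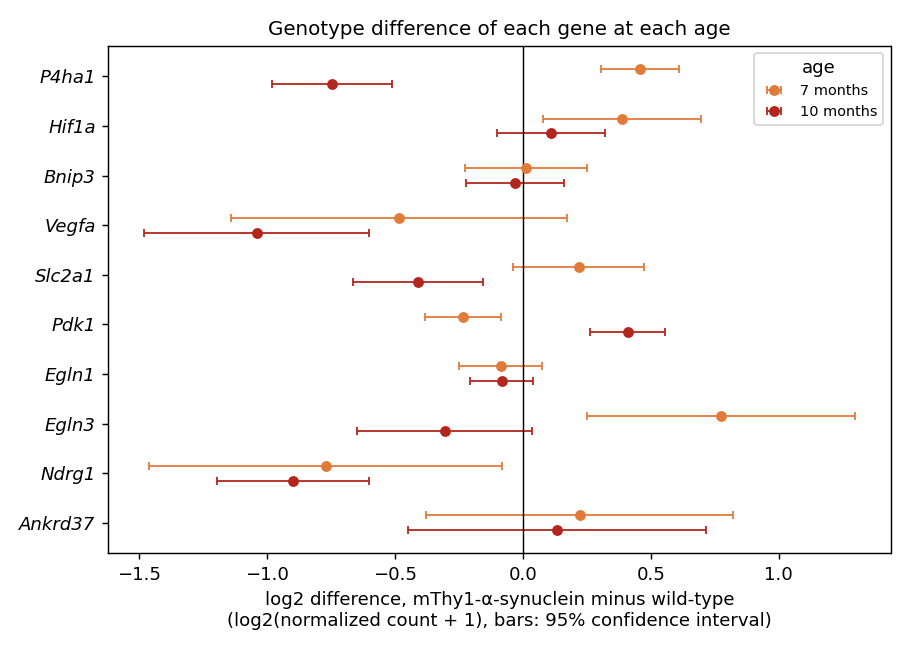
Log2 difference (horizontal axis, mThy1-α-synuclein minus wild-type, on log2(normalized count + 1)) of each of the 10 genes at 7 and 10 months, with 95% confidence intervals. P4ha1 lies at 0.46 and −0.75, Pdk1 at −0.24 and 0.41, Vegfa at −0.49 and −1.04 and Ndrg1 at −0.77 and −0.90. The intervals drawn for P4ha1 are no test, since it was chosen for these differences.

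The transcription factor subunit Hif1a was higher on average at 7 months without passing the test. The 6 transgenic mice ranged from 12465 to 22648 normalized counts with a median of 13976, and the wild-type mice had 11827, 12212, 10294 and 11394. The genotypes did not overlap, although replicate 3 of the transgenic mice, at 22648, stood far above the next at 15436. The log2 difference was 0.39 (SE 0.14, adjusted p = 0.140) and 0.27 without that mouse. At 10 months the groups overlapped throughout, at 14023, 12749, 11482, 10222 and 12021 against 13277, 11106, 10367, 12055 and 9391, with a log2 difference of 0.11 (SE 0.099, adjusted p = 0.553). Arnt, the constitutive partner, averaged 3759 to 4235 in the 4 groups and Epas1, which encodes HIF-2α, 757 to 2867, and neither passed the test at either age.

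Among the oxygen sensors, Egln1 encodes PHD2, the main sensor in most cells, and its RNA lay in a narrow band. Transgenic mice at 7 months ranged from 3281 to 3958 (median 3661) against 3783, 3532, 4301 and 3925 in wild-type mice, and at 10 months the values were 3554, 3629, 3398, 3355 and 3314 against 3815, 3540.4, 3547, 3630.2 and 3747. The groups overlapped at both ages, with log2 differences of −0.088 (95% interval −0.25 to 0.074, adjusted p = 0.537) and −0.084 (−0.21 to 0.041, adjusted p = 0.416). Egln2 (PHD1) averaged 928 to 1023 and did not pass the test either.

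Egln3 encodes PHD3, a sensor that is itself induced by HIF. At 7 months the transgenic mice ranged from 128 to 361 with a median of 229, and the wild-type mice had 129, 142, 148 and 127. All but 1 transgenic mouse (replicate 1, at 128) were above every wild-type mouse, and the log2 difference of 0.77 (SE 0.25) did not pass the test (adjusted p = 0.0834, and 0.0152 without that mouse). At 10 months the order turned, at 214, 226, 204, 231 and 232 against 234, 374, 277, 310.5 and 203, with overlap and a log2 difference of −0.31 (SE 0.16, adjusted p = 0.271). The difference between the ages was −1.08 (SE 0.30, adjusted p = 0.0318), and the adjusted p was over 0.05 when any of 6 mice was left out, up to 0.0623. Those mice were 10-month transgenic replicate 3, 10-month wild-type replicates 2 and 4, 7-month transgenic replicate 3 and 7-month wild-type replicates 1 and 4.

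Of the metabolic targets, Pdk1 ran opposite to P4ha1. Pdk1 encodes a kinase that inhibits pyruvate dehydrogenase and so holds pyruvate back from mitochondrial oxidation. At 7 months the transgenic mice ranged from 8518 to 10302 with a median of 8999.9, and the wild-type mice had 11331, 10562, 10978 and 10725. Every transgenic mouse was below every wild-type mouse, but the log2 difference of −0.24 (SE 0.069) missed the threshold (adjusted p = 0.0646, and 0.0323 without transgenic replicate 4).

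At 10 months Pdk1 had 9727, 10302, 9289.8, 9448 and 9692 normalized counts in transgenic and 6296, 7271, 7507, 7941 and 7544 in wild-type mice. It was higher in every transgenic mouse, by 0.41 on the log2 scale (SE 0.069, adjusted p = 0.00422), and the highest adjusted p over the alternatives was 0.0134. The genotype effect differed between the ages by 0.64 (SE 0.094, adjusted p = 0.000372), and this was the member outside P4ha1 with the lowest adjusted p in that comparison. Its relatives Pdk2 (598 to 678) and Pdk3 (1228 to 1373) did not pass the test at either age. Of 10 tested genes within 1 Mb of Pdk1, Rapgef4 was called at 7 months and Hat1 at 10 months, where 4.93% and 7.67% of all genes were.

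Slc2a1, the glucose transporter GLUT1 that is also typical of brain endothelium, turned in the same sense as P4ha1. At 7 months the transgenic mice ranged from 1728 to 2707 with a median of 2206, and the wild-type mice had 1787, 1945, 1773 and 2039. The groups overlapped, with a log2 difference of 0.22 (SE 0.12, adjusted p = 0.313). At 10 months the transgenic mice had 1882, 1908, 2221, 2984 and 1965, and the wild-type mice 3386, 2828, 2813, 2563 and 2818.

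Only transgenic replicate 4, at 2984, reached the wild-type range of Slc2a1 at 10 months. The log2 difference was −0.41 (SE 0.12, adjusted p = 0.0491), and the call was lost without any 1 of 8 of the 10 mice (all but transgenic replicate 4 and wild-type replicate 4), with an adjusted p of up to 0.114, and with edgeR (0.0669). The difference between the ages was −0.63 (SE 0.18, adjusted p = 0.0367), which was lost without any 1 of 12 mice, at up to 0.0774. Endothelial marker sums overlapped between the genotypes at 10 months (3807 to 7715 against 4238 to 7913), and at 7 months they were lower in transgenic mice (2846 to 4459 against 4968 to 5859). The part of endothelial RNA in the values of Slc2a1 was not tested. Slc2a1 and Pdk1 also ran opposite to each other among mice of the same group (r = −0.69 over 20 mice after removing group means, a description).

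Vegfa and Ndrg1, both low in these samples, were lower in transgenic mice at 10 months. Vegfa encodes the main vessel growth factor. At 10 months it had 148, 81.4, 136, 89.6 and 125 normalized counts in transgenic and 189.6, 277, 299.7, 195 and 226 in wild-type mice. The groups did not overlap, and the log2 difference was −1.04 (SE 0.21, adjusted p = 0.00950). At 7 months the transgenic mice had 94.1, 106, 131, 196, 309 and 184 and the wild-type mice 232, 304, 219.7 and 150.1, with wide overlap and a log2 difference of −0.49 (SE 0.31, adjusted p = 0.383).

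Ndrg1 encodes a growth arrest and differentiation protein that is abundant in oligodendrocytes. At 10 months it had 451, 342, 488, 472 and 402 in transgenic and 695, 924, 960.3, 609 and 864 in wild-type mice. The groups did not overlap, with a log2 difference of −0.90 (SE 0.14, adjusted p = 0.00280). At 7 months the transgenic mice had 221, 226, 287, 666, 554 and 384 and the wild-type mice 681, 635, 644 and 489.5, and the log2 difference was −0.77 (SE 0.31, adjusted p = 0.187, and 0.0412 without transgenic replicate 4). The effects at the ages were not shown to differ for either gene (adjusted p = 0.418 for Vegfa and 0.872 for Ndrg1).

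Both genes moved most closely with the markers of neutrophils and monocytes, among the 11 gene lists whose sums were compared. Those markers summed to 52501, 50755, 34950.5, 181138, 264498 and 158635 in the 7-month transgenic mice, and the first 3 of these mice were also the lowest of their group in Ndrg1 and in Vegfa. In the 7-month wild-type mice the sums were 194178, 185781, 174959 and 58279.6, and the last mouse was again the lowest in both genes. At 10 months they were 103242, 61837.5, 109835, 49644.7 and 126647 in transgenic and 204126, 221355, 260685, 109335 and 209214 in wild-type mice. Ndrg1 did not follow the order of the sums in the 10-month transgenic mice. It stood at 472 in replicate 4, with the lowest sum, and at 402 in replicate 5, with the highest.

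At 10 months only wild-type replicate 4 lay within the transgenic range of these sums. Lower calls were made for 3 of the 7 measured markers at that age, where 3.79% of all genes were called lower, and none of the 7 was at 0 in every mouse. After removing group means, the correlation with the summed markers over 20 mice was 0.86 for Vegfa, 0.79 for Ndrg1 and −0.025 for P4ha1, with both values of a pair coming from the same library. For Slc2a1 it was −0.58. Vegfa and Ndrg1 also followed the summed immediate-early genes, which respond to cell stimulation and handling (r = 0.69 and 0.64), and ran against the summed microglial markers (−0.56 and −0.63), and Ndrg1 followed endothelial markers (0.51). The immediate-early sums overlapped between the genotypes at both ages (39304 to 63355 against 51572 to 62859.9 at 7 months, and 43281 to 57152 against 42923 to 67267 at 10 months), with 1 of 10 genes called lower in transgenic mice at 10 months. The part of any of these in the differences of Vegfa and Ndrg1 was not tested. Oligodendrocyte marker sums overlapped at 10 months (7733 to 11094 in transgenic against 9181 to 15536 in wild-type mice) and were lower in transgenic mice at 7 months (7907 to 10357 against 12953 to 18513). Border macrophage sums at 10 months were 18217 to 23557 against 24773 to 35050 without overlap. Of these 6 markers 4 were called lower, where 3.79% of all genes were, a shift whose part in any of the calls was likewise not tested.

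**Figure D3:**
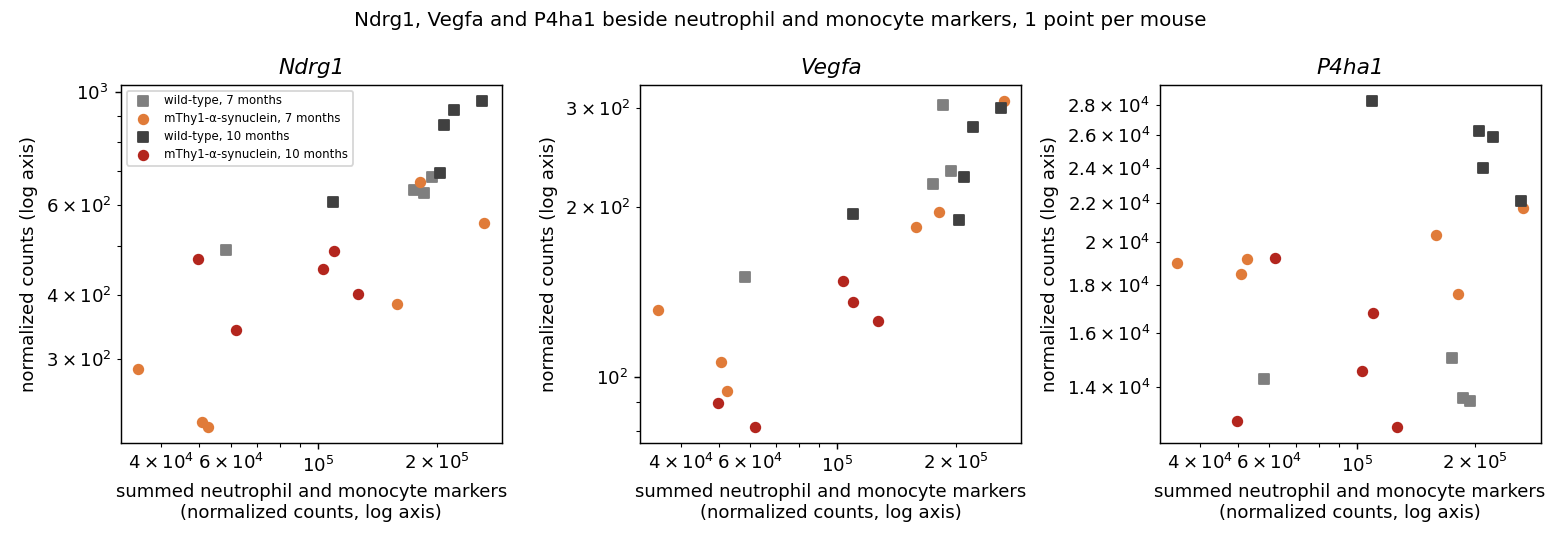
Normalized counts of Ndrg1, Vegfa and P4ha1 (vertical axes, log scale) against summed neutrophil and monocyte markers (horizontal axes, log scale), 1 point per mouse, with colour and shape for the 4 groups. Ndrg1 and Vegfa rise with the markers within groups (r = 0.79 and 0.86 after removing group means), and P4ha1 does not (−0.025).

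Bnip3 and Ankrd37 showed no difference past the test. Bnip3 encodes a mitochondrial protein that starts mitophagy in low oxygen. Its transgenic mice ranged from 1864 to 2624 (median 2072) against 2594, 1999.6, 2254 and 1795 at 7 months, and at 10 months the values were 1929, 2137, 1771, 2107 and 1688 against 1915, 1788, 1774, 2179 and 2184. The groups overlapped fully, with log2 differences of 0.012 (95% interval −0.23 to 0.25, adjusted p = 0.969) and −0.031 (−0.22 to 0.16, adjusted p = 0.873). Its relative Bnip3l, at 13205 to 15047, did not pass the test either.

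Ankrd37, a small ankyrin repeat protein induced by HIF, was read at 44 to 96 reads per mouse. The transgenic mice at 7 months ranged from 51.0 to 103 (median 61.1) against 39.5, 66.6, 59.0 and 61.7, and at 10 months the values were 46.3, 72.6, 68.5, 93.5 and 64.2 against 86.8, 77.4, 53.7, 61.8 and 38.7. Groups overlapped at both ages, and the intervals of the log2 differences were wide (−0.38 to 0.82, adjusted p = 0.688, and −0.45 to 0.72, adjusted p = 0.814). The gene overlaps Ufsp2 on the genome, so reads may be shared between them.

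Within groups the 10 genes had little in common. After removing group means, the 45 pairs of members had correlations between −0.69 (Slc2a1 and Pdk1) and 0.82 (Vegfa and Ndrg1) over 20 mice, with a median of 0.066. The pairs share library, depth and scaling factor, and the values are a description. With age means removed but genotype kept, Pdk1 was the member most strongly related to P4ha1 (r = −0.80), and with group means removed the relation was 0.046, so mice of the same group did not show it.

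The genes whose pattern over all 20 mice was most like that of P4ha1 were proteins of the endoplasmic reticulum and a chaperone partner. Among 13484 genes, with the mean of each age removed, the 5 highest correlations were Hsp90b1 (GRP94, r = 0.92), Pdia6 (0.92), Calr (calreticulin, 0.88), Pdia3 (0.86) and Fkbp4 (0.86), of which Hsp90b1, Pdia6, Calr and Pdia3 are folding factors of the endoplasmic reticulum. With group means removed as well the values were 0.64, 0.57, 0.55, 0.41 and 0.55. Their log2 differences were between 0.15 and 0.30 at 7 months and between −0.67 and −0.38 at 10 months, in the order of P4ha1 by the way they were chosen. Pdia6 averaged 14819.6 in transgenic against 12102 in wild-type mice at 7 months, and 13142 against 20826 at 10 months. The genes most opposed, named after their values were seen, were Slc2a9 (r = −0.93), Rbm3 (−0.92), Cirbp (−0.92), Umodl1 (−0.91) and Adam3 (−0.87), and Rbm3 and Cirbp encode RNA-binding proteins induced by mild cold. Cirbp averaged 1534 in transgenic against 2545 in wild-type mice at 7 months, and 2146 against 677 at 10 months.

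**Figure D4:**
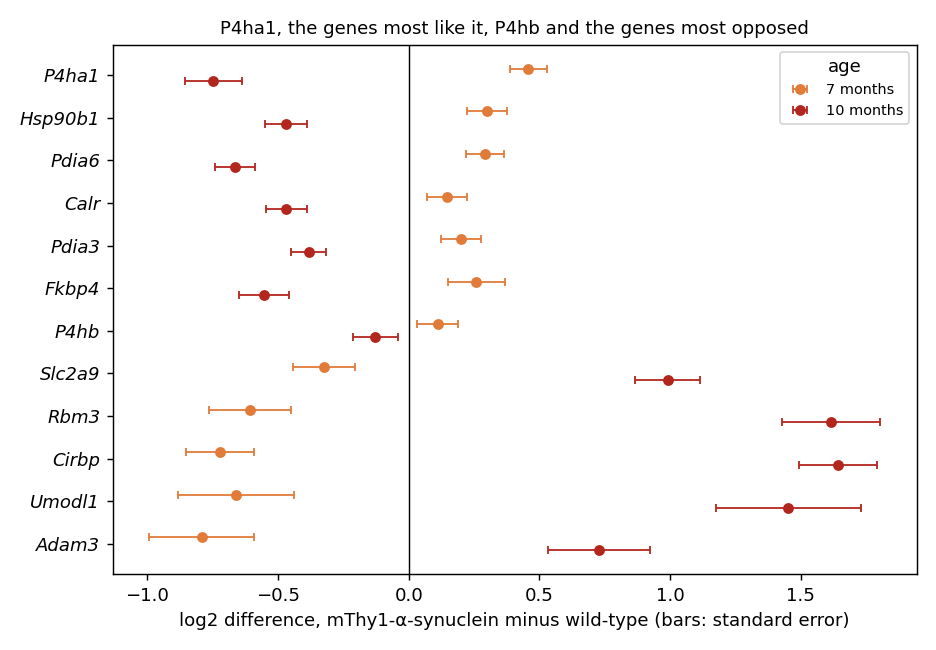
Log2 difference (horizontal axis, mThy1-α-synuclein minus wild-type, bars: standard error) at 7 and 10 months for P4ha1, the 5 genes most like it over 20 mice, its partner P4hb and the 5 genes most opposed. The like genes lie above 0 at 7 months and below 0 at 10 months, the opposed genes the other way round, and both directions follow from how they were chosen, while P4hb lies at 0.11 and −0.13.

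A wider list of 105 hypoxia pathway genes outside the 10 was read next, of which 93 were tested at each age. At 7 months 10 of them (10.8%) were called, 4 higher and 6 lower, and at 10 months 15 (16.1%), 2 higher and 13 lower, where 4.93% and 7.67% of all genes were. Without wild-type replicate 1 the count at 7 months was 5, and 6 without wild-type replicate 3 or 4. At 10 months it was 7 without transgenic replicate 1 and 8 without transgenic replicate 5 or wild-type replicate 1, 2 or 3. The median log2 differences were −0.013 and −0.068, beside 0.00093 and −0.0026 for all genes. Over all 17 alternatives at each age, 3 of the 10 calls at 7 months held in every one (Aldoc, P3h2 and Ndrg2) and 6 of the 15 at 10 months (Slc16a3, Ldha, Pfkl, Pgk1, Arnt2 and Cxcr4).

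Genes of glucose uptake and glycolysis made up 8 of the 15 calls at 10 months, all lower in transgenic mice. These were 38.1% of the 21 tested, where 7.67% of all genes were called and 3.79% were called lower. Of the 21 tested, 17 had a negative log2 difference, with a median of −0.23. Slc16a3, the lactate exporter MCT4, ranged from 1020.5 to 1357 in transgenic and from 1681 to 2259 in wild-type mice, without overlap (−0.77, SE 0.0996, adjusted p = 0.000894). Ldha, which makes lactate, ranged from 6807 to 8275 against 8525 to 11379 (−0.42, SE 0.082, adjusted p = 0.00897), and the phosphofructokinase Pfkl from 2101 to 2339 against 2524 to 3113 (−0.36, SE 0.0701, adjusted p = 0.00862).

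The further calls of this list were Slc2a3 (GLUT3, −0.70, adjusted p = 0.0432), Pgk1 (−0.37, adjusted p = 0.0106), Tpi1 (−0.32, adjusted p = 0.0452), Aldoa (−0.28, adjusted p = 0.0405) and Pgam1 (−0.28, adjusted p = 0.0263). With 1 mouse left out, the list had between 4 and 11 calls. It had 4 without transgenic replicate 1 or 5 or wild-type replicate 1 or 5, and 5 without transgenic replicate 3 or wild-type replicate 2 or 3, always lower. Slc2a3 is also abundant in neutrophils, whose summed markers were 49644.7 to 126647 in transgenic and 109335 to 260685 in wild-type mice at 10 months, and their part in these calls was not tested. At 7 months 1 of the 21 (4.76%) was called, a share near the 4.93% of all genes. This was Aldoc (−1.24, SE 0.21, adjusted p = 0.00347), an aldolase typical of astrocytes, at 110.2 to 229 against 309.9 to 499. Astrocyte marker sums at that age were 10289 to 13123 against 13928 to 18199.9, and their part was not tested.

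**Figure D5:**
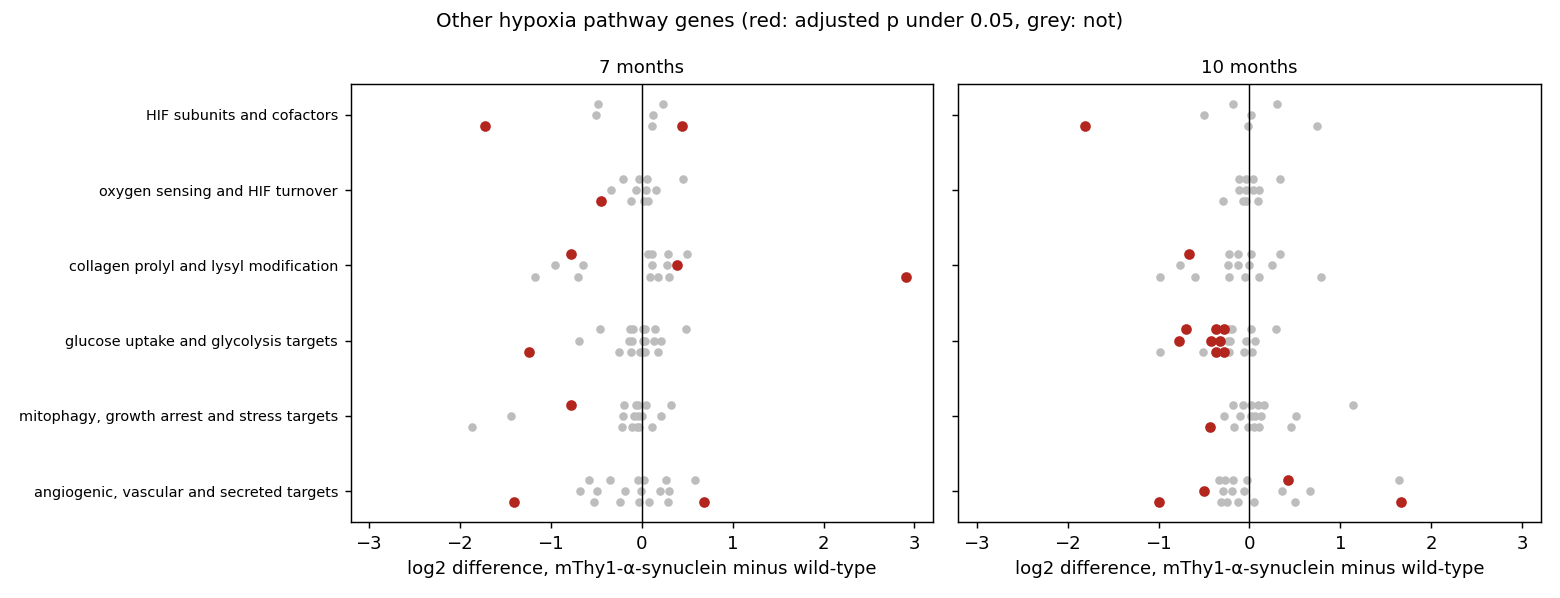
Log2 difference (horizontal axis, mThy1-α-synuclein minus wild-type) of the tested pathway genes outside the 10 members in 6 lists, at 7 months (left) and 10 months (right), 1 point per gene, with red for an adjusted p under 0.05 (limma) and grey for the rest. At 10 months 8 of 21 genes of glucose uptake and glycolysis are red and all 8 lie below 0, where 7.67% of all genes were called. At 7 months 1 of 21 is red, where 4.93% of all genes were called.

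In the list of collagen-modifying enzymes, to which P4ha1 belongs by function, 3 of 16 tested genes (18.8%) were called at 7 months, where 4.93% of all genes were, and 1 (6.25%) at 10 months, where 7.67% were. Lox, the lysyl oxidase that cross-links collagen and a HIF target, ranged from 1378 to 3763 in transgenic and from 210.2 to 357 in wild-type mice at 7 months, without overlap (2.91, SE 0.32, adjusted p = 0.00188, and 0.0674 with the replicate block). At 10 months it was 434 to 1349 against 491 to 1417 with overlap (0.33, adjusted p = 0.633), and the effects differed by −2.58 (SE 0.50, adjusted p = 0.00723). The prolyl 3-hydroxylase P3h2 (Leprel1 in the table) was higher at 7 months (0.39, adjusted p = 0.00489). Crtap, a partner of prolyl 3-hydroxylase, was lower at both ages (−0.77, adjusted p = 0.0321, up to 0.0986 without 7-month wild-type replicate 3, and −0.66, adjusted p = 0.0207, up to 0.05005 without 10-month transgenic replicate 1).

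Among HIF subunits and cofactors, 2 of 7 (28.6%) were called at 7 months and 1 (14.3%) at 10 months, where 4.93% and 7.67% of all genes were. Arnt2, a partner subunit found mostly in neurons, was lower at both ages (−1.72, adjusted p = 0.0371, up to 0.122 without 7-month wild-type replicate 3, and −1.81, adjusted p = 0.0116), at means of 54.0 against 156 and 36.3 against 115. Neuron marker sums were 251 to 495 against 805 to 1523 at 7 months and overlapped at 10 months (327 to 641 against 299.7 to 663). Cited2, an HIF-induced inhibitor that competes for the coactivator p300, was higher at 7 months (0.45, SE 0.11, adjusted p = 0.0351, up to 0.104 without wild-type replicate 3).

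Of the 12 genes of oxygen sensing and HIF turnover, 1 (8.33%) was called at 7 months, where 4.93% of all genes were. This was Rack1 (Gnb2l1 in the table, −0.44, adjusted p = 0.0121, up to 0.0652 without wild-type replicate 1), which promotes HIF-1α degradation. At 10 months limma called 0 of 12, where 7.67% of all genes were, and edgeR and DESeq2 called 0 too. An unadjusted p under 0.05 was found for 1 of the 12, and for 3209 of all 13627 genes. In the list of mitophagy, growth arrest and stress targets 1 of 18 (5.56%) was called at each age, a share near the 4.93% and 7.67% of all genes. These were Ndrg2 at 7 months (−0.77, adjusted p = 0.00514) and Bhlhe40 at 10 months (−0.44, adjusted p = 0.0314, up to 0.0780 without transgenic replicate 3), both lower.

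The angiogenic, vascular and secreted targets had 2 of 19 (10.5%) called at 7 months and 4 of 19 (21.1%) at 10 months, where 4.93% and 7.67% of all genes were. Cxcl12 was lower at 7 months (−1.41, adjusted p = 0.00787, and 0.0609 with the replicate block) and its receptor Cxcr4 at 10 months (−0.999, adjusted p = 0.0152), at 1082 to 2077 against 2074 to 3882. Cxcr4 is also a neutrophil gene. At 7 months the endothelial, oligodendrocyte, astrocyte and neuron marker sums were lower in transgenic mice too, and their part in the value of Cxcl12 was not tested. The carbonic anhydrase Car12 was higher at 10 months (1.67, SE 0.41, adjusted p = 0.0255, up to 0.0627 without transgenic replicate 1), at 45.5 to 213 against 19.1 to 47.0.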

How the data were processed

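Microglial RNA of 20 male mice was sequenced, and the deposited signal values (called normalized counts) are counts per gene after scaling by the authors, with 1 DESeq2 size factor per mouse that was computed within its age group. Per the labels and methods the reads were trimmed with Trim Galore 0.6.7, mapped to mm10 with HISAT2 2.2.1 and counted with featureCounts, and DESeq2 1.44.0 gave the factors. The strand and multi-mapping settings are not given in the sources used here. Dividing by the step between values gave whole reads for 100% of values within 0.05. In 1 mouse (10-month mThy1-α-synuclein replicate 5) the step was too close to 1 for this to be a test. Reads counted on genes were 33404096 to 77806399 per mouse. Any pair of mice in a group had a chi-square of at least 24.7 per gene, as an average over genes. On that average counting noise was small beside differences between mice, which does not show the same for single genes with few reads.

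A gene was tested when it reached 10 normalized counts in at least 4 mice at 7 months or 5 at 10 months. limma (3.58.1, R 4.3.3, mean-variance trend and robust estimation) was run on log2(value + 1) for genotype at each age and for the difference between the ages over 20 mice, with Benjamini-Hochberg adjustment over all tested genes and a threshold of 0.05. The members and lists were chosen with earlier results of these data known, and p-values are over single mice as replicates. Alternatives were edgeR (4.0.16) and DESeq2 (1.42.0) on the recovered reads, TMM scaling, pseudocounts of 0.5 and 5, no filter, each mouse left out and a replicate block. edgeR called 695 genes at 7 and 1080 at 10 months, DESeq2 1158 and 1694, and limma 684 and 1045. The main limma fit of each comparison was tested on simulated data, and the alternatives were not. Gene lengths are summed exons of GENCODE, promoters come from RefSeq (GRCm38.p6), and Python 3.11.15 with matplotlib 3.10.9 made tables and figures. Of 206 list symbols 205 were in the table, 9 of them under an older symbol.

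Genes named are the 10 members, called genes of the pathway lists, paralogs of members, the 5 genes most like P4ha1, called neighbours of P4ha1 and Pdk1 within 1 Mb and markers as list sums. The 5 genes most opposed to P4ha1 are named outside this rule, chosen after their values were seen. The DNA methylation and behaviour data were not used here. Values of a few called pathway genes are not reported here.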

Additional observations from a re-analysis of the deposited data

Results flagged for a closer look

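Hif1a in 7-month mThy1-α-synuclein replicate 3, at 22648 normalized counts, lay farther from its group than a sample of 6 usually does, and it was 1 of 40 groups with such a value, where chance gives about 1 in 20 groups. Without that mouse the log2 difference of Hif1a at 7 months was 0.27 in place of 0.39.

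The genotype effect of P4ha1 differed between the ages by −1.21 on the log2 scale (10 minus 7 months). All transgenic mice were above all wild-type mice at 7 months and below them at 10 months, and the difference was not tested because the gene was chosen for it.

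In the fit over all 20 mice (limma, adjusted p under 0.05) the genotype effect of 3 other members differed between the ages, by 0.64 for Pdk1, −0.63 for Slc2a1 and −1.08 for Egln3. Of the wider pathway, 13 of 94 tested genes (13.8%) did, where 6.6% of all 14030 genes did. Of these 13 calls, 4 (Aldoc, Ndrg2, Cited2 and Pfkl) held in all 27 alternatives and 9 were lost in at least 1, with Hmox1 at up to 0.117. The glucose and lactate genes were Aldoc (1.53, adjusted p = 0.00528), Slc16a3 (−0.78, adjusted p = 0.0188), Pfkl (−0.57, adjusted p = 0.00951), Ldha (−0.46, adjusted p = 0.0293) and Pfkfb4 (−0.39, adjusted p = 0.0330). The collagen enzymes were Lox (−2.58, adjusted p = 0.00723) and Plod3 (−0.51, adjusted p = 0.0117). The others were Ndrg4 (2.58, adjusted p = 0.0161), Ndrg2 (1.23, adjusted p = 0.00553), Cited2 (−0.63, adjusted p = 0.0201), Hmox1 (−0.57, adjusted p = 0.0250), Gnb2l1 (0.54, adjusted p = 0.0354) and Bhlhe41 (−0.51, adjusted p = 0.0268).

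Of these 13 genes, 4 had a more positive effect at 10 months (Aldoc, Ndrg2, Ndrg4 and Gnb2l1) and 9 a more negative one. Aldoc and Ndrg2 are typical of astrocytes, whose summed markers were lower in transgenic mice at 7 months without overlap and overlapped at 10 months. Ndrg4 was low, at group means of 32.6 to 88.0 normalized counts, and its call was lost with the replicate block (limma, adjusted p = 0.0683). Summed neuron markers were likewise lower in transgenic mice at 7 months without overlap and overlapped at 10 months. The part of these cells in the values was not tested.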

How the results depend on the processing

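P4ha1 kept the sign of its difference at each age in every alternative (0.40 with the replicate block at 7 months to 0.49 with a mouse left out, and −0.84 to −0.69 at 10 months). The counts of members that follow include P4ha1, which was chosen on these contrasts, so its own entry is no test. The number past the threshold at 7 months was 4 with DESeq2 in place of 1, adding Hif1a, Pdk1 and Egln3, and it ranged from 1 to 3 with a mouse left out (2 without transgenic replicate 1, adding Egln3, and 3 without transgenic replicate 4, adding Pdk1 and Ndrg1). At 10 months it ranged from 4 to 5, and for the difference between the ages from 2 to 4, with 2 without 10-month transgenic replicate 3, 10-month wild-type replicate 2, 7-month transgenic replicate 3 or 7-month wild-type replicate 1. Pathway genes called ranged from 5 to 15 at 7 months and from 7 to 19 at 10 months with a mouse left out. DESeq2 called 1158 genes at 7 months and 1694 at 10 months, where limma called 684 and 1045. No direction of a called result reversed.

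Mice of each group share numbers in the labels. Deviations of equally numbered mice correlated at −0.13 to 0.032 at 7 months and −0.05 to 0.0995 at 10 months. Of 9 pairs, 0 matched best with their own number. No pairing by number was seen, but so few pairs cannot show that a weak pairing is absent. With the replicate block the difference between the ages was past the threshold for 2 members in place of 4, counting P4ha1 in both, and so for 1 of the other 9 (Pdk1) in place of 3, with adjusted p = 0.0971 for Slc2a1 and 0.0869 for Egln3. Slc2a1 was not called at 10 months either (0.0879). For pathway genes the block left 6 such calls in place of 13, and there were 9 to 15 with a mouse left out. The block gave 481 calls in place of 926 for the difference between the ages and 414 in place of 684 at 7 months.

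Purity of the microglia is given only as an estimate, ages were normalized separately and sample numbers are small, so a missed threshold does not show equal levels. Genes near 50 normalized counts, such as Ankrd37, have wide intervals.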
